A study of Homo sapiens with 8 samples.

Results

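The 7 genes described here encode the catalytic protein of telomerase (TERT) and the 6 proteins of shelterin, the complex that coats telomeres: TERF1, TERF2, TERF2IP, TINF2, ACD and POT1. They were chosen by function, with gene coordinates from the RefSeq gene table of GRCh38, and are 7 of 19974 protein-coding genes on chromosomes 1 to 22 and X. Every ATAC-seq peak that touched one of these genes or the 5 kb on either side was taken from each of 8 deposited peak lists, which gave 143 peaks: 59 at TERT and 84 at the 6 shelterin genes. ATAC-seq marks open chromatin by the places where the Tn5 transposase can cut and tag DNA. All 8 libraries came from mitotic hTERT RPE-1 cells of the genotype Plk1-/- EGFP-Plk1as, a human epithelial line that lacks its own Plk1, a mitotic kinase, and carries a tagged version that the compound 3MB-PP1 can block. All were held in prometaphase with 5 µM STLC, a mitotic kinesin inhibitor, for 16 h, harvested by shake-off, and then kept in STLC for 2 h with either DMSO (4 libraries) or 10 µM 3MB-PP1 (4 libraries). The comparison asks what blocking Plk1 does to the accessibility of mitotic chromosomes.

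Telomeres are the repeated DNA at chromosome ends, and telomerase lengthens them by copying an RNA template with its reverse transcriptase, TERT. In shelterin, TERF1 and TERF2 bind the double-stranded repeats, TERF2IP (Rap1) rides on TERF2, TINF2 ties both of these to ACD (TPP1), and ACD holds POT1, which binds the single-stranded end and together with ACD governs access of telomerase. Shelterin genes are active in most dividing cells, whereas TERT is silent in most body tissues. hTERT RPE-1 cells were immortalised by an added TERT expression construct, so fragments of that construct could be counted inside the TERT gene, and its peaks are given by place, with those near the start kept apart from those in the body.

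The lists held 150577 to 252752 peaks on chromosomes 1 to 22 and X, and the read depth behind them is unknown. Peaks were shorter in the 3MB-PP1 lists, with a median width of 269 to 324 bp against 355 to 409 bp, and the smallest width allowed was 90 to 109 bp against 114 to 135 bp. Odd-numbered and even-numbered replicates also stood apart in both groups, with 0.868% to 0.933% and 0.595% to 0.694% of peaks on chromosome X, so differences are also given within each of these sets. Of the markers of the labelled cell type, KRT8 and KRT18 had a peak within 1 kb of a gene end in 8 of 8 lists. The retinal pigment epithelium genes MITF and OTX2 did too, RPE65 in 0 lists and TYR and BEST1 in 2 each. Of the blood genes, PTPRC had a peak in 0 lists and CD3E in 8, so a call at this threshold does not separate cell types.

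Reference sequences just upstream of the gene start are shown for the 2 shelterin genes whose start peaks had the highest pileup (POT1 and ACD), for TERF2IP, whose peak is shared with a neighbouring gene, and for TERT, which had no peak over its start. Pileup is the authors' measure of fragment coverage in a peak, with values that are not whole numbers. Whether it is the highest value or a mean over the peak is not given in the sources used here. If it is a mean, it depends on the width of the peak. The sequences shown are from RefSeq (GRCh38.p14), not reads from these cells. They are written 5′ to 3′ on the gene's strand and end at the base before the gene start. Capitals mark matches, on either strand, to GGGCGG (the core bound by Sp1-type factors), CACGTG (an E-box, the core bound by MYC-MAX), TGCGCA (bound by NRF1) or CCGGAAG (bound by ETS factors).
POT1, chr7:124929826-124930075, minus strand: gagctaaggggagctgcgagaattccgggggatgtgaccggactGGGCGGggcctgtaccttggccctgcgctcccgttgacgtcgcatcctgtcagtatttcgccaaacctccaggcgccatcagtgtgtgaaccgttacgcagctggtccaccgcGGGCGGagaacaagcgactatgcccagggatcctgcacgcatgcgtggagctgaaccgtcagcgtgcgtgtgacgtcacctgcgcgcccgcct
ACD, chr16:67660261-67660510, minus strand: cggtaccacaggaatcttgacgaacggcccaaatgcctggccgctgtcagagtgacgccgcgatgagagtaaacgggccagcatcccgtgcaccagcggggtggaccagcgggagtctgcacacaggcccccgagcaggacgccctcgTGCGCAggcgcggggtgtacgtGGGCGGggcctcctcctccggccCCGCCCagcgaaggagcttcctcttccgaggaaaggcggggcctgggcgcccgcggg
TERF2IP, chr16:75647666-75647772, plus strand: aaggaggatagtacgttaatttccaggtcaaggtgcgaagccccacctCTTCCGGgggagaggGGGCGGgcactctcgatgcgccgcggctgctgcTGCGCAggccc
TERT, chr5:1295069-1295318, minus strand: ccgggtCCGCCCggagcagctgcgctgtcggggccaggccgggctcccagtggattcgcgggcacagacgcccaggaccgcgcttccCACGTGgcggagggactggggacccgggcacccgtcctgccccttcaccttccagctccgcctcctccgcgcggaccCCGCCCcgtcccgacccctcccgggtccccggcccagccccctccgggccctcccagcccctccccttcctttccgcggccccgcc
The TERF2IP stretch is 107 bases long because it fills the gap to the neighbouring gene KARS1. RefSeq promoter entries matched 5 of the 7 genes; TERF1 and TERF2 are named only.

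GGGCGG was found in the 250 bases before the start of all 5 matched genes, and 55.8% of 15812 such stretches hold it. TERT had it 244 and 86 bases before the start, counted to the first base of the match, POT1 206 and 93, ACD 80 and 57, TERF2IP 44 and TINF2 15. CACGTG was found only at TERT among these 5, 163 bases before the start, and occurs in 7.79% of stretches. TGCGCA was found at ACD and TERF2IP (9.15% of stretches), and CCGGAAG at TERF2IP (11.7%). CCAAT, the core bound by NF-Y, was found at TINF2 (34.4%), where it lies directly beside the GGGCGG match with no shared base, and the telomeric repeat unit TTAGGG at none of the 5 (7.96%). GC content of the 250 bases was 78.8% at TERT, higher than in 94.0% of stretches, 70.8% at ACD, 64.4% at POT1 and TINF2, and 62.8% at TERF2IP, against a median of 62.0%.

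All 6 shelterin genes had a peak over their start in 8 of 8 lists, and TERT in 0 of 8. Among 15814 protein-coding genes with an annotated start, 49.2% had a peak over it in every list and 25.6% in none. Within 1 kb of the start, 60.2% of genes had a peak in 8 lists, as the 6 shelterin genes did, and TERT had one in 6. No gene of the 7 was called in all lists of 1 treatment and none of the other, which over all genes happened for 0.0379% (DMSO alone) and 0.0949% (3MB-PP1 alone). The 48 peaks over the shelterin starts held 44 of the 45 peaks, among all 143, with a −log10 q of at least 5, where q is the authors' adjusted p-value of the peak against its background. The other 36 shelterin peaks reached a −log10 q of 3.14 at most.

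**Figure D1:**
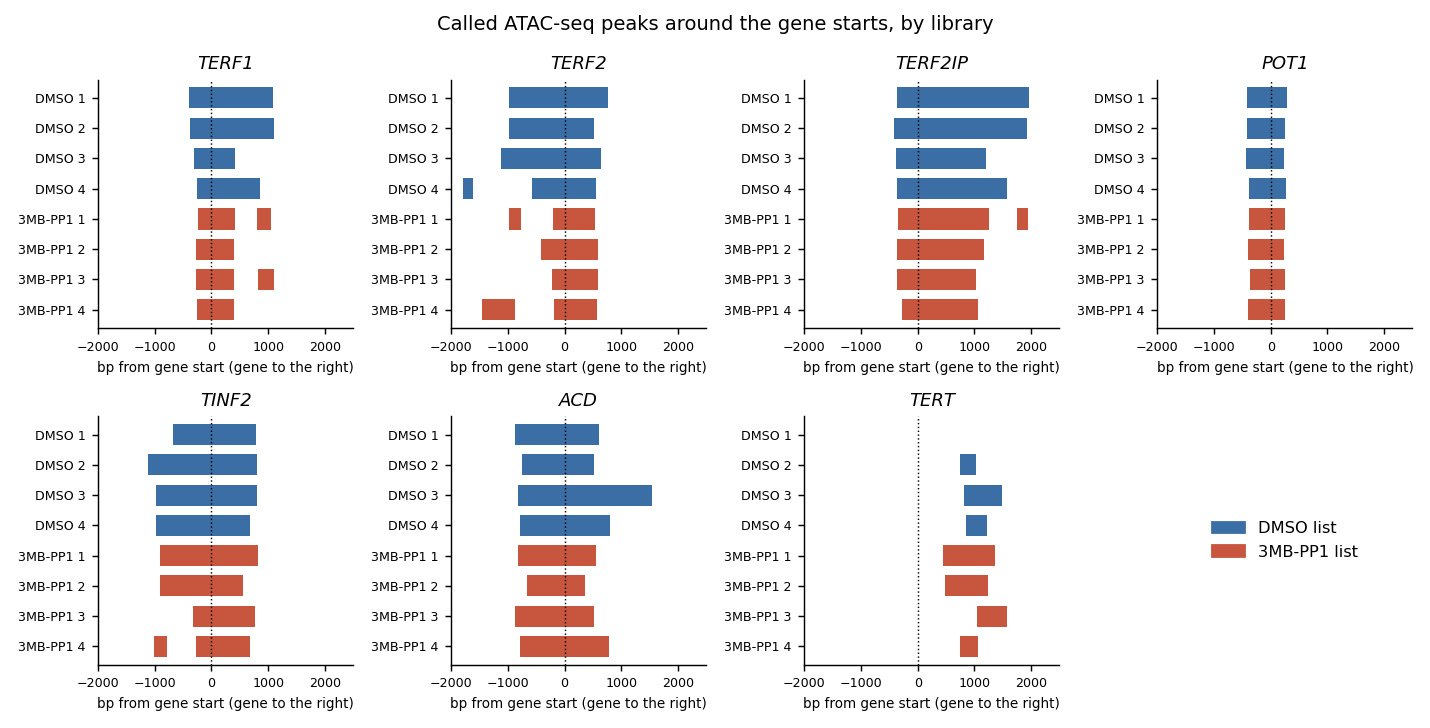
Called peaks around each gene start, with 1 row per library and distance in bp from the start on the horizontal axis (gene to the right, dotted line at the start). Each bar is 1 peak, blue in DMSO and red in 3MB-PP1 lists; every shelterin gene has a bar across its start in 8 lists, and TERT has none across its start.

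POT1, which caps the single-stranded end, had the highest start peak of the 6 in every list, by pileup and by fold enrichment. Fold enrichment is the authors' value for a peak's pileup relative to its local background, by a formula that the sources used here do not give. It was 8.07, 8.07, 8.58 and 8.11 in DMSO replicates 1 to 4 and 9.98, 8.73, 11.04 and 7.58 in 3MB-PP1 replicates 1 to 4. Its pileup percentile, the share of peaks in the same list with a lower pileup, was 99.55 to 99.88, and its −log10 q 31.8 to 102.9. Values of separate lists are not scaled to one another, so pileup and fold are compared between genes within a list and not between treatments. The peak lies at a shared start region: the antisense transcript gene POT1-AS1 begins 48 bp away, and the POT1 peak covered its end in 8 lists. POT1 (chr7:124822386-124929825, minus strand) also had a weaker region called in 8 lists inside the gene, 71648 to 73395 bp past the start (chr7:124856430-124858177). Its fold was 2.73 to 3.66 there, its −log10 q 1.41 to 3.14, and its width ranged from 137 to 1748 bp.

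ACD, which joins POT1 to the rest of shelterin, ranked second by pileup among the 6 in 8 lists, at percentiles of 99.32 to 99.65. By fold it ranked last of the 6 in 7 of 8 lists. Its fold was 4.12, 3.48, 3.52 and 2.92 with DMSO and 3.56, 3.10, 3.32 and 2.58 with 3MB-PP1. Pileup divided by fold, an approximate background, was 14.7 to 35.9 at ACD, against a list median of 3.18 to 5.13. If a constant was added to pileup and background before fold was taken, the true background is lower than this quotient. ACD is a compact gene of 2749 bp (chr16:67657512-67660260, minus strand). Its start lies 700 bp from an end of the polarity gene PARD6A, and its peak covered that end in 7 of 8 lists.

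TERF1, a binder of double-stranded repeats (chr8:73008864-73048123, plus strand), ranked second by fold in 8 lists. Its fold was 6.38, 5.12, 7.22 and 6.43 with DMSO and 7.70, 5.59, 7.11 and 5.50 with 3MB-PP1, at pileup percentiles of 95.62 to 99.01. TINF2, the bridging subunit (chr14:24239640-24242674, minus strand), had folds of 4.03 to 4.80 and pileup percentiles of 96.11 to 98.21. TERF2IP, the partner of TERF2 (chr16:75647773-75657432, plus strand), had folds of 3.72 to 4.75 and pileup percentiles of 95.92 to 98.07. Within each list, TERF1 had the highest pileup percentile of these 3 genes except in DMSO replicate 2 and 3MB-PP1 replicate 4, where it had the lowest. The order of TINF2 and TERF2IP by pileup percentile changed between lists. The TERF2IP start lies 108 bp from an end of KARS1, which encodes a lysyl-tRNA synthetase, and the start peak covered that end in 8 lists, so this peak cannot be given to 1 of the 2 genes.

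TERF2, the other binder of double-stranded repeats (chr16:69355567-69386007, minus strand), had the lowest start peak of the 6 by pileup in 8 lists. Its pileup percentile was 93.11, 92.62, 93.09 and 90.65 with DMSO and 91.66, 86.51, 91.63 and 75.98 with 3MB-PP1. Its −log10 q was 11.5, 8.60, 8.76 and 4.92 with DMSO and 6.30, 3.66, 4.84 and 2.57 with 3MB-PP1. It was thus the 1 shelterin gene whose start peak reached a −log10 q of 5 in some lists and not others, 3 DMSO and 1 3MB-PP1; the other 5 reached it in 8 lists, as did 30.2% of all genes.

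**Figure D2:**
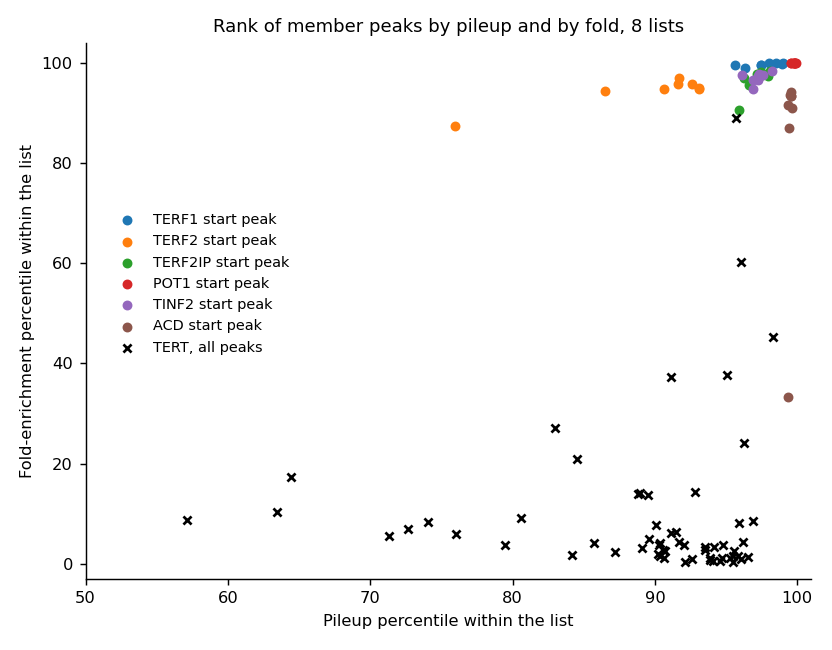
Percentile of each peak within its own list, by pileup (horizontal axis) and by fold enrichment (vertical axis), for the start peaks of the 6 shelterin genes (dots, 1 per list) and all 59 TERT peaks (crosses). POT1 sits at the top right, TERF2 is lowest in pileup among the start peaks, and most TERT peaks combine a high pileup with a low fold.

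The start peaks of TERF1 and TERF2 were narrower in every 3MB-PP1 library than in every DMSO library, as were those of 13.8% of all genes tested. The TERF1 peak was 1475, 1476, 731 and 1122 bp wide in DMSO replicates 1 to 4, and 645, 672, 672 and 648 bp in 3MB-PP1 replicates 1 to 4. The mean was 1201 ± 355 bp with DMSO and 659 ± 14.8 bp with 3MB-PP1 (SD, n = 4 each), a difference of -541.75 bp and a ratio of 0.549. The groups did not overlap, with DMSO replicate 3 close to the 3MB-PP1 values and the other DMSO libraries far above. The TERF2 peak was 1737, 1495, 1764 and 1123 bp wide with DMSO, and 758, 1003, 813 and 759 bp with 3MB-PP1. Its mean was 1529.75 ± 297 bp with DMSO and 833 ± 116 bp with 3MB-PP1, a difference of -696.5 bp and a ratio of 0.545. Here too the groups were apart, by 120 bp between the narrowest DMSO and the widest 3MB-PP1 peak.

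Non-overlap of this kind was common: of 9515 genes with a start peak in every list, 13.8% had wider peaks in all DMSO libraries and 0.0946% in all 3MB-PP1 libraries, and 88.3% had a lower mean width with 3MB-PP1. The median gene had a ratio of 0.884, a log2 ratio of -0.18. TERF1 and TERF2 lay toward the edge of this shift, with 4.99% and 4.82% of genes at a lower ratio. By the exact two-sided permutation test, p was 0.0286 for each, the smallest that 70 assignments of the libraries allow, and 0.206 after Benjamini-Hochberg adjustment over the 9515 genes, so neither passed a threshold of 0.05. None of the 9515 genes did by this test, and 1322 had an unadjusted exact permutation p of at most 0.05. By limma on log2 width, the log2 difference was -0.81 (SE 0.219, adjusted p = 0.129) at TERF1 and -0.86 (SE 0.167, adjusted p = 0.0528) at TERF2, where 1.78% of genes passed in the direction of wider DMSO peaks, 0.578% with the replicate number as a block, and 0 in the other direction in either fit.

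When each width was divided by the median start-peak width of its own list, the genes whose groups did not overlap were 2.08% with higher DMSO values and 13.9% with higher 3MB-PP1 values, a reversal of the split. TERF2 was still lower in all 3MB-PP1 libraries on that scale, at 0.754 ± 0.106 against 1.13 ± 0.155 of the list median (exact permutation p = 0.0286). The TERF2 groups were only just apart, at 0.909 in 3MB-PP1 replicate 2 and 0.930 in DMSO replicate 4. No adjusted p was computed on this scale. TERF1 was at 0.597 ± 0.0144 against 0.895 ± 0.253 (exact permutation p = 0.143), and its groups overlapped, since DMSO replicate 3, at 0.527, lay below all 4 3MB-PP1 libraries. Within odd-numbered replicates the width difference was -444.5 bp at TERF1 and -965 bp at TERF2, and within even-numbered ones -639 and -428 bp. The smallest peak width that each list holds moved with the treatment as given above, and its part in the widths was not tested.

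The other 4 shelterin start peaks had a lower mean width with 3MB-PP1 and overlapping groups. TERF2IP peaks measured 2327, 2361, 1589 and 1948 bp with DMSO and 1602, 1545, 1396 and 1345 bp with 3MB-PP1, a difference of -584.25 bp (exact permutation p = 0.0571, adjusted p = 0.249). The overlap came from DMSO replicate 3, which was 13 bp below 3MB-PP1 replicate 1. TINF2 peaks measured 1477, 1916, 1785 and 1669 bp with DMSO and 1724, 1473, 1096 and 955 bp with 3MB-PP1, a difference of -399.75 bp (exact permutation p = 0.114, adjusted p = 0.315). Here 3MB-PP1 replicate 1 lay among the DMSO libraries. ACD peaks measured 1471, 1274, 2366 and 1578 bp with DMSO and 1371, 1032, 1383 and 1572 bp with 3MB-PP1, a difference of -332.75 bp (exact permutation p = 0.314, adjusted p = 0.514). DMSO replicate 3 was far wider than the other ACD peaks. Within odd-numbered and even-numbered replicates the differences were -459 and -709.5 bp at TERF2IP, -221 and -578.5 bp at TINF2, and -541.5 and -124 bp at ACD.

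Of the 6, POT1 had the lowest mean width with either treatment: 706, 666, 661 and 664 bp with DMSO and 633, 635, 607 and 666 bp with 3MB-PP1. Its mean was 674 ± 21.3 bp against 635 ± 24.1 bp, a difference of -39 bp (exact permutation p = 0.114, adjusted p = 0.315), and 70.7% of genes had a lower ratio than its 0.942. Divided by the list median, the POT1 peak was wider with 3MB-PP1 by 0.0717 of that median (exact permutation p = 0.0571), so its direction depends on the scale. With the list median taken over genes present in all lists, the split over all genes was 2.63% with higher DMSO values against 10.4%. Over the 6 shelterin genes the median ratio was 0.741, beside 0.884 over all 9515 genes. The mean was lower with 3MB-PP1 in 6 of 6, beside 88.3% of the 9515 genes. Between libraries of the same replicate number, the 3MB-PP1 peak was the narrower in 4 of 4 at TERF1, TERF2, TERF2IP and ACD, and in 3 of 4 at POT1 and TINF2. The share over all genes was not computed for these pairs.

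The count of 2 shelterin genes with separate groups changed with the libraries used. It was 4 without 3MB-PP1 replicate 1, with TERF2IP and TINF2 added, where 21.1% of all genes tested had wider peaks in every DMSO library. It was 3 without 3MB-PP1 replicate 4 (POT1 added), beside 17.4% of all genes, and 3 without DMSO replicate 3 (TERF2IP added), beside 15.9%. With fewer libraries such separation is easier, and the share over all genes was 15.9% to 28.2%, highest without DMSO replicate 4, where 2 shelterin genes had it. TERF1 and TERF2 had separate groups in all 8 of these runs, with differences of -698 to -450 bp and -832 to -618 bp.

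**Figure D3:**
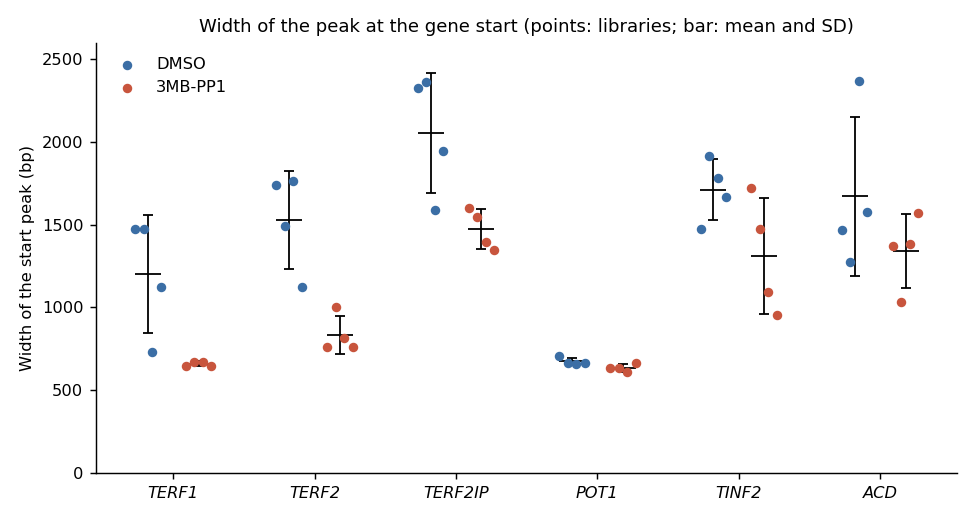
Width in bp of the peak at each shelterin gene start, with 1 point per library and bars for the mean and SD of 4 libraries per treatment. TERF1 and TERF2 are the 2 genes whose DMSO (blue) and 3MB-PP1 (red) points do not overlap, and POT1 stays between 607 and 706 bp throughout.

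The parts of each peak before and after the gene start, taken apart after the widths had been seen, showed where the 2 peaks were shorter. At TERF1 the part inside the gene was 866 ± 317 bp with DMSO and 397 ± 10 bp with 3MB-PP1, a difference of -468.5 bp with separate groups (exact permutation p = 0.0286). The part before the TERF1 start differed by -73.25 bp, with overlapping groups (exact permutation p = 0.0857). At TERF2 it was the part before the start that was shorter, 909 ± 238 bp against 259 ± 100 bp, a difference of -650 bp with separate groups (exact permutation p = 0.0286). Inside TERF2 the difference was -46.5 bp (exact permutation p = 0.486). Over 7776 genes with a peak over the start in 8 lists, groups were separate with longer DMSO parts for 9.79% before the start and 8.78% after it, and with longer 3MB-PP1 parts for 0.167% and 0.129%. At TERF2IP the part inside the gene differed by -544 bp and the part before it by -40.25 bp, at ACD by -312.5 and -20.25 bp, and at TINF2 the longer difference was before the start, -332 against -67.75 bp, all 6 with overlapping groups.

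Some 3MB-PP1 lists held a small separate peak beside the start peak of TERF1, TERF2, TERF2IP or TINF2, each overlapping the stretch of at least 1 DMSO start peak. TERF1 had 1 of 256 bp in 3MB-PP1 replicate 1 and 1 of 291 bp in replicate 3, both inside the gene. TERF2 had 1 of 215 bp in replicate 1 and 1 of 583 bp in replicate 4, both before the start, and the second of these ran to position -1464 bp from the start, past the farthest DMSO start peak edge at -1119 bp. TERF2IP had 1 of 201 bp in replicate 1, and TINF2 1 of 225 bp before the start in replicate 4. Counting all peak length within 1 kb of the start, TERF1 had 1155.5 ± 309 bp with DMSO and 754 ± 109 bp with 3MB-PP1 (exact permutation p = 0.0857), and its groups overlapped. TERF2 had 1500 ± 270 bp and 917 ± 87.3 bp on this measure (exact permutation p = 0.0286), with separate groups, as for 12.4% of genes with more covered length in DMSO and 0.158% with more in 3MB-PP1.

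**Figure D4:**
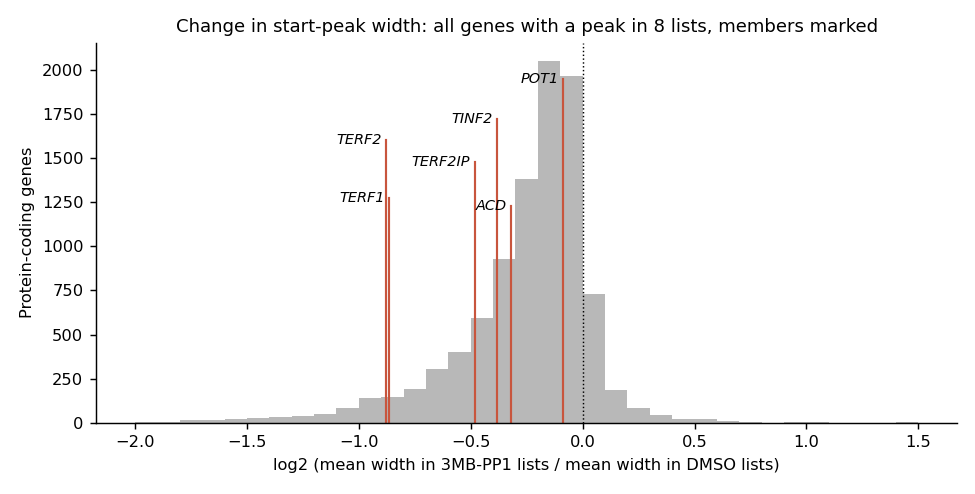
Histogram of the log2 ratio of mean start-peak width, 3MB-PP1 over DMSO, for 9515 genes (grey; number of genes on the vertical axis), with the 6 shelterin genes as red lines whose height carries no meaning. The median gene is at -0.18; TERF1 and TERF2 lie in the left tail and POT1 near 0.

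At TERT (chr5:1253167-1295068, minus strand) the peaks were spread over the gene and none crossed its start. The 8 lists held 4, 7, 5 and 9 peaks with DMSO and 9, 9, 9 and 7 with 3MB-PP1. Of the 59 peaks, 6 touched the first 1 kb of the gene, 41 lay in the rest of it and 12 in the flanks. The nearest peak edge upstream was 2945 bp from the start and the nearest inside 444 bp. Exon positions were not used here, so peaks of the gene body are not divided into exonic and intronic ones, and a second protein-coding gene model, LOC124905596, spans the TERT start. Fragments from the added TERT construct cannot be told apart from those of the gene in peak lists.

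The peak nearest to the start lay 444 to 1571 bp inside the gene (chr5:1293497-1294624) and was called in 7 lists, all but DMSO replicate 1. Because it lies inside the gene, fragments of the added construct could be counted in this peak too, so it cannot be read as promoter signal alone. In 3MB-PP1 replicate 3 it began 1053 bp past the start, outside the 1 kb window. In the 6 lists where it touched the window its fold was 1.94 to 2.33, below the start peak of every shelterin gene in the same list. Its pileup, in contrast, exceeded that of the TERF2 start peak in 5 of those 6 lists, at percentiles of 89.52 to 96.57. Its −log10 q was 1.51 to 2.85.

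Further regions of TERT were called in more than 1 list, most of them in both treatments. A region 11079 to 12101 bp past the start (chr5:1282967-1283989) was called in 3 DMSO and 4 3MB-PP1 lists. One 3898 to 4145 bp past the start (chr5:1290923-1291170) was called in 2 DMSO and 4 3MB-PP1 lists, and one 22579 to 23975 bp past it (chr5:1271093-1272489) in 3 and 3. A region 44730 to 45695 bp past the start (chr5:1249373-1250338), beyond the end of the gene, was called in 4 DMSO and 1 3MB-PP1 lists. One 10133 to 10653 bp past the start (chr5:1284415-1284935) was called in 0 DMSO and 3 3MB-PP1 lists. The share of all regions with calls as unequal as these was not computed, so they are not read as treatment differences. Of 19 merged TERT regions, 8 were called in a single list. Of the 26 at the shelterin genes 16 were, and 7 regions, the 6 starts and the internal POT1 region, were called in 8 lists.

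TERT peaks were high in pileup and low in fold. Of 59, 40 lay above the 90th percentile of their list by pileup, and 45 below the 10th percentile by fold, with folds from 1.82 to 3.42. A single TERT peak had a −log10 q of at least 5, in 3MB-PP1 replicate 1 (fold 3.42, −log10 q 5.82, 145 bp wide). The approximate background of TERT peaks (pileup divided by fold) was 6.77, 12.5, 7.29 and 12.9 in DMSO replicates 1 to 4. It was 6.35, 11.5, 9.48 and 12.0 in 3MB-PP1 replicates 1 to 4, each a median over the TERT peaks of the list. These values carry each list's own scale, so they were divided by the median background of the list. That gave 1.72, 2.43, 1.60 and 2.84 with DMSO and 2.00, 2.94, 2.51 and 3.07 with 3MB-PP1. Within each treatment both even-numbered libraries lay above both odd-numbered ones, and across treatments the 2 sets overlapped. Peaks within 1 Mb of TERT had 1.45 to 1.82 times the list median. By the median over each gene's peaks, 39.7% and 43.7% of genes had a higher background than TERT in DMSO replicates 1 and 3. In the other lists it was 5.51% to 21.7%. In DMSO replicates 1 and 3 TERT also lay below the lowest shelterin start peak, at 7.405 and 7.957. It lay above the lowest in the other lists, and below the highest in every list.

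**Figure D5:**
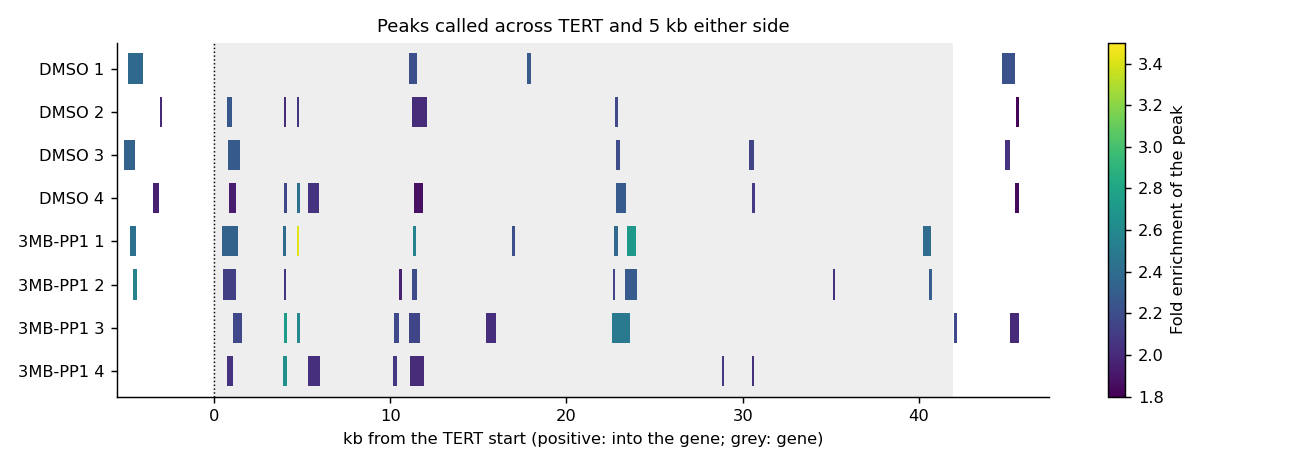
Map of the peaks called in each list across TERT (grey) and 5 kb either side, by distance in kb from the start (dotted line), with bar colour giving the fold enrichment of the peak. Peaks lie in the gene and in both flanks and none crosses the start; the brightest bar is the 3MB-PP1 replicate 1 peak with a fold of 3.42.

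The length covered by peaks in TERT and its flanks was 2253, 1940, 2004 and 3231 bp with DMSO and 3053, 2572, 4095 and 2552 bp with 3MB-PP1. The mean was 2357 ± 598 bp with DMSO and 3068 ± 723 bp with 3MB-PP1, a difference of 711 bp (exact permutation p = 0.2, adjusted p = 0.55), and the groups overlapped. Within odd-numbered replicates the difference was 1445.5 bp and within even-numbered ones -23.5 bp, so the pooled value rested on the odd-numbered libraries. The number of TERT peaks was 6.25 ± 2.22 with DMSO and 8.5 ± 1.0 with 3MB-PP1 (exact permutation p = 0.257). With every list reduced to the length of the shortest, the TERT covered length differed by 550 bp with an exact permutation p of 0.0286 before adjustment, with more in every 3MB-PP1 list, as for 0.457% of all genes at that list length. This setting was among several tried. The unadjusted exact permutation p was 0.0571 per Mb covered in the list and 0.0857 without flanks. It was 0.114 with 10 kb flanks and 0.257 with a common smallest width.

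Peaks covered less of each of the 6 shelterin genes on average in the 3MB-PP1 lists, with differences from -501.25 bp at TERF2IP to -332.75 bp at ACD. Groups did not overlap for 0 of the 7 genes, with exact permutation p-values of 0.0857 to 0.314, against 7.25% of 16857 genes with more covered length in all DMSO and 0.943% in all 3MB-PP1 libraries. Without DMSO replicate 3 it was 2 genes (TERF1 and TERF2IP), both with more in DMSO, as for 7.93% of all genes. It was 1 gene with more in DMSO without DMSO replicate 4 (POT1, beside 14.8% of all genes), without 3MB-PP1 replicate 1 (TINF2, beside 11.6%) and without 3MB-PP1 replicate 4 (TERF2, beside 8.44%). TERT had more in all 3MB-PP1 libraries without DMSO replicate 4, by 1002.3 bp, as for 2.94% of all genes. In the number of peaks the groups also overlapped for all 7, where 0.166% of genes had more peaks in all DMSO and 2.75% in all 3MB-PP1 libraries.

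The genes nearest to TERT in the pileup percentile of the start-window peak over the 8 lists, with a list lacking a peak set to 0, were LRCOL1, FOXI1 and FXYD3. Their mean absolute differences from TERT were 0.644, 5.30 and 5.76 percentile points. Each had a peak in the same 6 lists as TERT, which the measure largely requires. The TERT peak compared here lies inside the gene, where fragments of the added construct could be counted.

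Of 34 further genes of telomere maintenance, 22 had an annotated start in the table used, and all 22 had a peak within 1 kb of it in 8 lists, where 60.2% of genes did. Mean width was lower with 3MB-PP1 for 18 of the 22, beside 88.3% of all genes. The median ratio was 0.891, close to the 0.884 of all genes. Groups did not overlap for 3, all with wider DMSO peaks, beside 13.8% of all genes, and 0 of the 22 passed the adjusted permutation test, or limma, where the smallest adjusted p was 0.0807; 3 had an unadjusted exact permutation p of at most 0.05. SHQ1, an assembly factor of telomerase RNA particles, had start peaks of 2256, 1937, 1749 and 1882 bp with DMSO and 1559, 1382, 906 and 1061 bp with 3MB-PP1, a difference of -729 bp. GAR1, a protein of those particles, had 1339, 1458, 1544 and 1427 bp against 1178, 1255, 1151 and 791 bp, a difference of -348.25 bp. MRE11, a nuclease that acts on broken DNA ends, had 1244, 1110, 1205 and 1160 bp against 822, 839, 990 and 966 bp, a difference of -275.5 bp. For each of the 3 the exact permutation p was 0.0286 and the adjusted p 0.206. Of the 12 genes without an annotated start, 11 had a peak within 1 kb of a gene end in 8 lists, and TERC, the telomerase RNA gene, in 5, with 0 at a −log10 q of 5 or more. Either gene end counted here, which is easier to meet than the start window, and the share over all genes was not computed.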

How the data were processed

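ATAC-seq had been performed on 8 libraries, assigned to 4 DMSO and 4 3MB-PP1 samples by their titles; the series' design text calls them biological replicates. The authors deposited 1 peak list per library, so peaks were called per sample. The submitters' processing notes name MACS2, DESeq2 and hg38, with no roles or versions; the aligner, filters, Tn5 shift and calling settings are not given in the sources used here, and they could change peak widths. The deposited lists have no header; from their values, the authors' columns hold the peak position, its width in bp, its pileup (a signal, or coverage), its −log10 p and −log10 q against background, and its fold enrichment, a ratio. The largest q was 0.1. Pileup, fold and −log10 q were used within each list alone, to rank, filter or describe its peaks. Depth is unknown, so no interval was computed.

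A start peak was the peak of highest pileup within 1 kb of the gene start. Starts and strands came from a RefSeq promoter table (GRCh38.p14), except for TERF1 and TERF2, which have no entry. Their strands were set from general knowledge, and their starts are the matching gene ends in the gene table. With both, 15814 genes had a start. Widths and covered lengths were tested over the 70 assignments of libraries to groups (exact permutation, two-sided), with Benjamini-Hochberg adjustment over all genes tested, and also with limma 3.58.1 (R 4.3.3) on log2 width. Genes were counted where the groups did not overlap. The members, the lists and the naming rule (the 7 genes, up to 3 per direction of the telomere maintenance list, 3 nearest to TERT) were chosen with earlier results of these data known. Alternatives were a −log10 q of at least 5, equal list lengths, a common smallest width, other windows and flanks, scaled widths, leaving out libraries, odd and even replicates and a replicate block. Scripts ran under Python 3.11.15 (scipy 1.17.1, matplotlib 3.10.9, pandas 2.3.3) and were tested on simulated data.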

Additional observations from a re-analysis of the deposited data

Results flagged for a closer look

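Of 54 groups of 4 libraries checked, 4 had a library far from the other 3. A chance rate of about 1 in 20 holds for independent, normally distributed values without ties, and not all of these groups are such. The POT1 start peak was 706 bp wide in DMSO replicate 1, against 661 to 666 bp in the other DMSO libraries. Its pileup percentile in that library was 99.55, against 99.78 to 99.81. The POT1 fold enrichment in DMSO replicate 3 was 8.575, against 8.069 to 8.112. TERT had 7 peaks in 3MB-PP1 replicate 4, against 9 in each of the other 3 3MB-PP1 libraries. With those 3 counts tied, any other count would have been flagged.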

How the results depend on the processing

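The number of shelterin genes with separate groups in start-peak width, 2 as reported, was 1 at a −log10 q of at least 5. Of all genes tested there, 16.6% had separate groups with wider DMSO peaks. TERF2 was not tested at that setting, as its start peak reached it only in 3 DMSO and 1 3MB-PP1 lists. With widths divided by the list median the number was 1, and also 1 with that median taken over genes present in all lists (chosen after seeing the data). The number was 1 for the length covered within the window. It was 2 to 4 when single libraries were left out (15.9% to 28.2% of all genes), and 4 in the odd-numbered replicates and 4 in the even-numbered ones, where 2 libraries face 2 and 49.6% and 41.3% of all genes did the same. Counted by an adjusted p of at most 0.05 instead, the number was 0 in the permutation test, 0 with limma and 0 with limma and a replicate block. With the replicate block in the permutation test it was 0, since 16 assignments cannot give a p below 0.125. The labels do not say what a replicate number shares. Deviations of width correlated at 0.006 to 0.137 between same-numbered libraries, not every library best with its own number, whereas by the share of peaks on chromosome X 8 of 8 libraries were nearest to their own number, a hint from the data and not from the design. The limma calls over all genes went from 169 to 55 with the block.

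For covered length the number with more in DMSO, 0 as reported, was 1 at a −log10 q of at least 5 (17.8% of all genes), 2 with 10 kb flanks (6.82%), 0 to 2 without single libraries (7.93% to 14.8%), 3 in the odd-numbered replicates (33.4%) and 3 in the even-numbered ones (35.7%). Directions reversed at POT1 for scaled width (0.0717, and 0.0499 over genes in all lists), at TERF2 for covered length without flanks (180 bp), and within even-numbered replicates for the covered length of TERT (-23.5 bp) and POT1 (76.5 bp). The causes were not tested. Unknown depth limits every count of peaks: absence from a list is not absence of signal.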
